A study of Mus musculus with 4 samples.

Results

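The genes examined here make and break down heme or, in the case of Abcb10, encode a mitochondrial transporter linked to heme. They are 9 of the 47729 genes in the deposited count table, found by matching each mouse Ensembl ID to the symbols Alas1, Alad, Urod, Cpox, Ppox, Fech, Abcb10, Hmox1 and Hmox2. The rule is a list of names with no expression threshold, but the list was drawn up with earlier results of these data known. All 9 matched 1 row each, and all 9 passed the filter on low counts.

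The libraries came from C57BL/6 mouse CD4 T cells cultured under conditions that induce regulatory T (iTreg) cells, which acquire the transcription factor Foxp3 under TGF-β. Both groups were grown with TGF-β at 5 ng/mL and IL-2 at 100 U/mL, with IL-4 and IFN-γ neutralized by antibodies at 5 µg/mL, and per the methods the T cells were naive cells stimulated through CD3 and CD28. The FeSO4 group (n = 2) received ferrous sulfate at 50 µM for 4 days, and the Mock group (n = 2) received PBS for the same time. The methods describe the samples as pairs from independent experiments without saying which library belongs to which, so that p-values measure the spread between these libraries. Per the study's reporting summary, the mice were age-matched and of young adult age. The study asked which transcripts respond to iron in these cells.

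Heme is a porphyrin ring that holds an iron atom. Its synthesis begins in the mitochondrion with ALAS1, the rate-limiting enzyme outside the red cell lineage, continues in the cytosol through ALAD and UROD, and returns to the mitochondrion, where CPOX and PPOX oxidize the ring and FECH, the ferrochelatase, inserts ferrous iron. Heme oxygenases open the ring again and release biliverdin, carbon monoxide and ferrous iron. HMOX1 is the inducible enzyme, whose gene is held down by the heme-sensing repressor BACH1 and turned on by NRF2, whereas HMOX2 is the constitutive one. ABCB10 is a transporter of the inner mitochondrial membrane that red cell precursors need for hemoglobin.

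Each library held 35183187 to 40859178 reads assigned to genes. Levels are given as CPM, read counts scaled to a common library size with a correction for composition. Cd4 and Cd3e, which mark helper T cells, lay at 606 to 683 CPM and 304 to 346 CPM. Trbc2, a T cell receptor beta constant gene, was at 390 and 381 CPM in Mock and rose to 531 and 528 CPM in FeSO4 (log2 fold change 0.46 ± 0.06, SE; adjusted p = 4.5e-05). Foxp3 was at 587 and 693 CPM in Mock and at 376 and 472 CPM in FeSO4. Its groups did not overlap, and its log2 fold change was -0.60 ± 0.09 (SE, adjusted p = 0.000223). From bulk RNA alone, fewer Foxp3-expressing cells and less Foxp3 RNA per cell cannot be told apart. Macrophages are a rich source of Hmox1. The 10 myeloid marker genes summed to 284 and 104 counts in Mock and to 64 and 90 counts in FeSO4, of which Lyz2 gave 164 in Mock replicate 1, and Marco was at 0 in all 4 libraries. Mock replicate 1 also held 156 counts of the B cell gene Igkc, against 3 to 8 elsewhere, while Ms4a1, another B cell marker, had at most 1 count. Ighm rose (log2 fold change 0.68 ± 0.07, SE, adjusted p = 3.75e-06) and Cd79a, at 69 to 107 counts, was not called. The part of these cells in the results below was not tested, and values without Mock replicate 1 are given for the genes called among the 9. Among the erythroid markers, Hba-a1 rose from 994 and 820 counts in Mock to 1284 and 1202 counts in FeSO4 (log2 fold change 0.66 ± 0.12, SE; adjusted p = 0.000731), Hba-a2 had 41 to 74 counts, Alas2 had 4 to 16, and Slc4a1 and Rhag were at 0 in all 4 libraries.

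With FeSO4, 3 of the 9 genes rose, 1 each from synthesis, transport and breakdown, and the genes for the first and the last step of synthesis, Alas1 and Fech, did not pass the test. Cpox rose 1.72-fold, Hmox1 1.60-fold and Abcb10 1.39-fold. No gene of the 9 fell. Among all 13732 genes tested, 10.9% rose and 9.17% fell at an adjusted p under 0.05 (20.0% in either direction). So 3 of 9 is above and 0 of 9 below the share of the whole table. Because the 9 genes were listed with earlier results of these data known, this is no independent evidence. When all genes with at least 1 count were tested, 1 of the 9 (Cpox) was called, with 524 of 22164 genes higher. The libraries of the groups did not overlap for 6 of the 9 genes, against 59.5% of all genes tested. The median log2 fold change of the 9 genes was 0.018, and that of all genes tested was -0.00052.

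**Figure D1:**
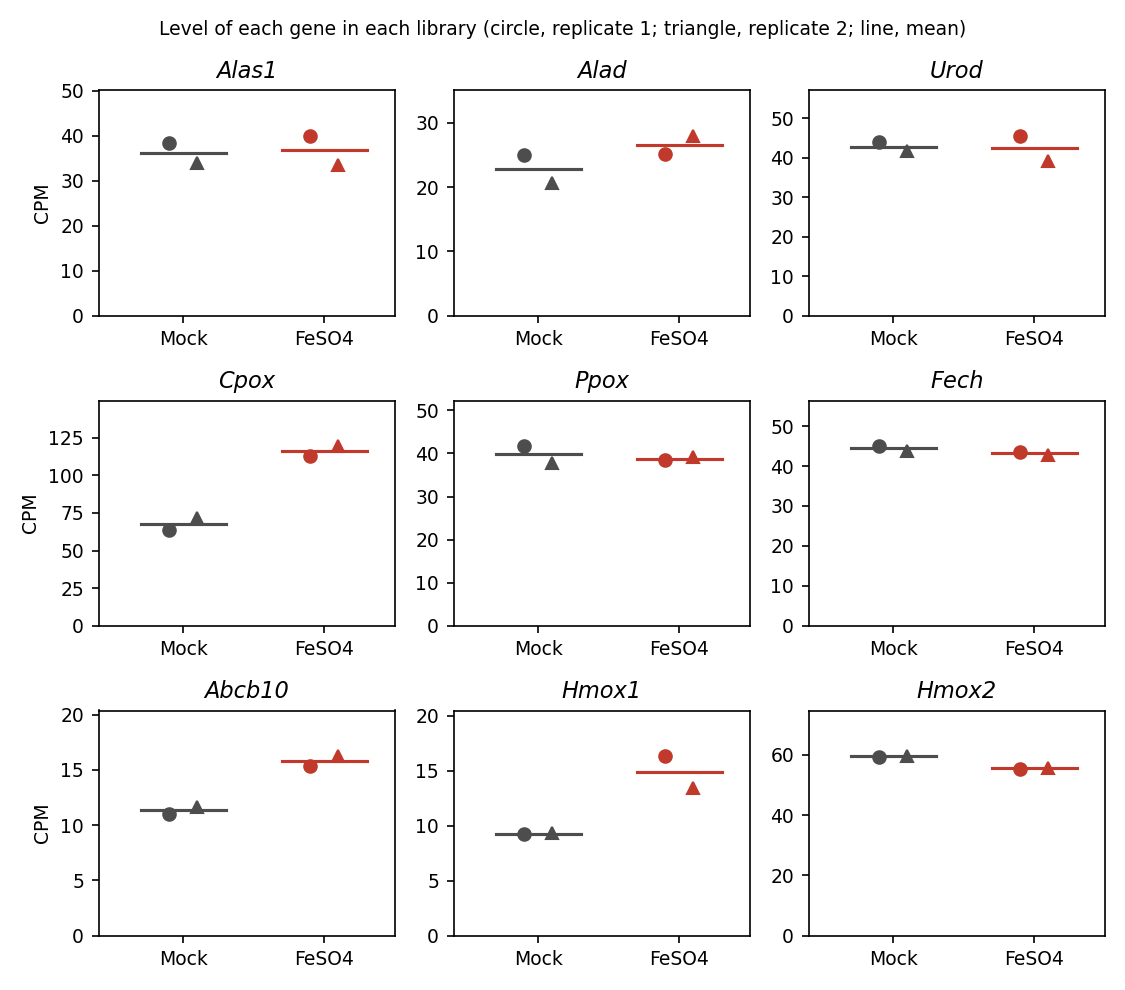
Level of each of the 9 genes in CPM (vertical axis, starting at 0) in the Mock (grey) and FeSO4 (red) libraries. Circles are replicate 1, triangles replicate 2 and lines the group means. For Cpox, Abcb10 and Hmox1 the red points all lie above the grey ones, while the points of Alas1, Urod and Ppox overlap.

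Promoter windows are shown for Cpox and Abcb10, the genes that rose and for which the RefSeq table used here holds a window (250 bases before to 50 after the start site, build GRCm38.p6). The table holds windows for 7 of the 9 genes and none for Hmox1 and Fech. Capitals mark matches on either strand to any of the motifs searched. The motifs were the antioxidant response element core (TGACNNNGC), the E-box (CACGTG), the NRF1 core (GCGCATGC), the cAMP response element (TGACGTCA), the CCAAT box (CCAAT), the GC box (GGGCGG), the sterol regulatory element (TCACNCCAC) and, chosen after the Cpox window had been seen, a GATA site (GATAAG). Cpox lies on the plus strand (window chr16:58669958-58670257) and Abcb10 on the minus strand (window chr8:123983073-123983372).
Cpox: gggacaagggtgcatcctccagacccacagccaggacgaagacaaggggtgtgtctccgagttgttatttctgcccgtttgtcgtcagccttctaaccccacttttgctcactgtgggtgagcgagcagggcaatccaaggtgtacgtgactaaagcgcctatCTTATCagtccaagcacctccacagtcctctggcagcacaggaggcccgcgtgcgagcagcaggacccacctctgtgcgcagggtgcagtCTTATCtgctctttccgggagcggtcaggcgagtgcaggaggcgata
Abcb10: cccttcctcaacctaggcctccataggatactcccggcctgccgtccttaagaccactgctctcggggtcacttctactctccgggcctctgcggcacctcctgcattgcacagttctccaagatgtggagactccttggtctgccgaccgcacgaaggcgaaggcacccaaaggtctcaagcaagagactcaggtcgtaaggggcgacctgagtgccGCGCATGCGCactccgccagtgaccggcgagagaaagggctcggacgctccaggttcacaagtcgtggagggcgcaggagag

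In the Cpox window the 2 marked stretches are GATA sites on the reverse strand, with first bases at position -87 and at position 4 of the transcript. Of 32817 windows of this length, 7.45% hold such a site. The other 6 genes with a window hold none. In the Abcb10 window the capitals cover 2 overlapping matches to the NRF1 core, 1 on each strand, with first bases at -32 and -30. This motif occurs in 2.71% of windows, and among the 9 genes it is found again in the windows of Alas1. The antioxidant response element core, present in 12.4% of windows, and the sterol regulatory element, present in 1.24%, have no match in any window of the 7 genes searched. No window was at hand for Hmox1, so its promoter was not searched for any motif. Bases farther from the start sites were not searched for any gene. A match is a description of the letters, and no factor binding was measured.

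Alas1 (ENSMUSG00000032786, chr9:106233455-106247954, GRCm38.p6, minus strand) encodes the enzyme that joins glycine and succinyl-CoA. It was at 38.5 and 34.0 CPM in Mock and at 40.0 and 33.5 CPM in FeSO4, so that the FeSO4 libraries enclosed the Mock libraries. Its estimate was 0.018 ± 0.10 on the log2 scale (SE, adjusted p = 0.931), with a 95% interval of the fold change from 0.871 to 1.18. A change by the factor seen for Cpox would lie outside this interval. The sign turned with upper quartile scaling, with library size only, without Mock replicate 2 and without FeSO4 replicate 1. In the mm9 annotation 114 of its exonic bases overlap 4930500F10Rik on the opposite strand. Alas2, the gene of the red cell isoform, had 4 to 16 counts in a library.

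Alad (ENSMUSG00000028393, chr4:62505984-62520063, minus strand), which encodes the zinc enzyme that forms porphobilinogen, was at 25.0 and 20.6 CPM in Mock and at 25.2 and 28.0 CPM in FeSO4. The groups did not overlap, but the lower FeSO4 library and the higher Mock library were nearly equal. FeSO4 against Mock gave a log2 change of 0.22 ± 0.11 (SE, adjusted p = 0.192), and the interval of the fold change ran from 0.987 to 1.38. The change was 0.36 without Mock replicate 1 (adjusted p = 0.0674) and 0.093 without Mock replicate 2 (adjusted p = 0.685).

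Urod (ENSMUSG00000028684, chr4:116989965-116994436, minus strand) encodes the decarboxylase that yields coproporphyrinogen, the substrate of CPOX. It was at 44.0 and 41.6 CPM in Mock and at 45.6 and 39.1 CPM in FeSO4, where the FeSO4 libraries again enclosed those of Mock. The estimate was -0.017 ± 0.093 (log2, SE, adjusted p = 0.926), with an interval of the fold change from 0.862 to 1.13.

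Cpox (ENSMUSG00000022742, chr16:58670208-58680391, plus strand) encodes coproporphyrinogen oxidase, which works with molecular oxygen in the space between the mitochondrial membranes. It was at 63.8 and 71.6 CPM in Mock and at 113 and 120 CPM in FeSO4. Both FeSO4 libraries were well above both Mock libraries. The group means were 67.7 ± 5.56 and 116 ± 4.98 CPM (SD, n = 2 each), and the log2 fold change was 0.78 ± 0.08 (SE, adjusted p = 2.75e-06). With all 4 libraries this is the largest change among the 9 genes, and it was higher than that of 95.8% of all genes tested. Without FeSO4 replicate 2, the change of Hmox1 was larger (0.82, against 0.74 for Cpox). The same-numbered libraries of Cpox gave log2 ratios of 0.82 and 0.74. Cpox passed the threshold under each of 13 alternative settings, with 0.69 to 0.87 when single libraries were left out and 0.69 (adjusted p = 6.56e-06) without Mock replicate 1.

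Ppox (ENSMUSG00000062729, chr1:171276991-171281193, minus strand) encodes the enzyme that oxidizes the product of CPOX to protoporphyrin. It was at 41.8 and 37.9 CPM in Mock and at 38.5 and 39.1 CPM in FeSO4, and the groups overlapped. The difference was -0.04 ± 0.09 in log2 (SE, adjusted p = 0.812), with an interval of the fold change from 0.854 to 1.11. In the mm9 annotation 791 of its exonic bases overlap exons of B4galt3 on the opposite strand, and B4galt3 had a log2 change of -0.14 ± 0.12 (SE, adjusted p = 0.453). The strand setting of the counting is not given in the sources used here.

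Fech (ENSMUSG00000024588, chr18:64456542-64489098, minus strand) encodes ferrochelatase, which needs an iron-sulfur cluster and uses iron as its substrate. It was at 45.1 and 43.7 CPM in Mock and at 43.6 and 42.8 CPM in FeSO4. Both FeSO4 libraries were lower by a margin that is small beside the error of the fit. Its log2 fold change was -0.04 ± 0.08 (SE, adjusted p = 0.784), and the interval of the fold change ran from 0.860 to 1.10.

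The genes for the steps on either side of Cpox, Urod and Ppox, had intervals of the fold change that end at 1.13 and 1.11, while that of Cpox ran from 1.54 to 1.92. Cpox supplied 23.8% and 27.8% of the summed level per length of the 6 synthesis genes in Mock, and 35.7% and 38.1% in FeSO4. Without Cpox, the sum of the other 5 was 64.1 and 58.4 CPM per kb of exon in Mock and 63.9 and 61.2 CPM per kb in FeSO4, and the groups overlapped.

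**Figure D2:**
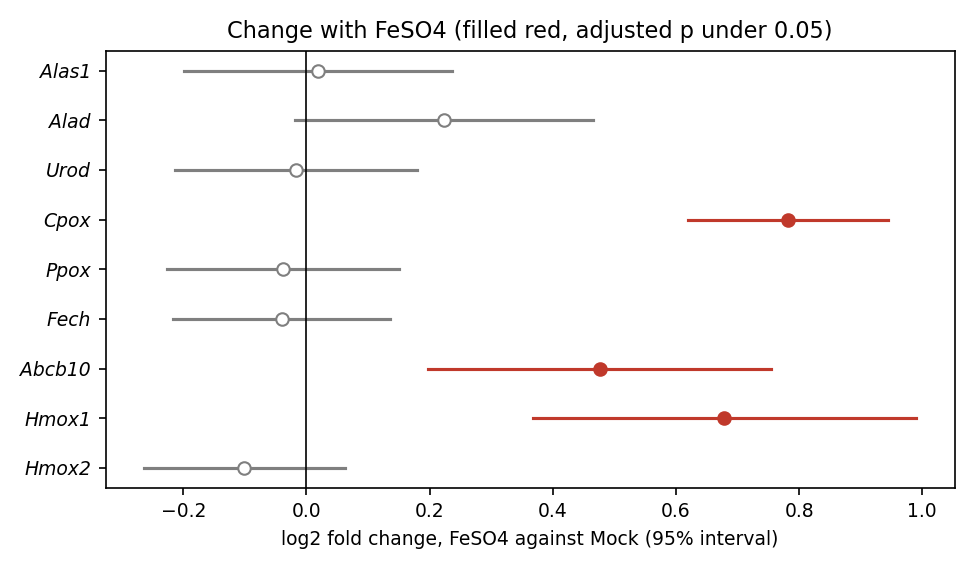
Log2 fold change of FeSO4 against Mock (horizontal axis) for the 9 genes, with synthesis at the top in the order of the pathway, then the transporter and the heme oxygenases. Points are estimates and lines 95% intervals, and filled red marks an adjusted p under 0.05, reached by Cpox (0.78), Abcb10 (0.48) and Hmox1 (0.68).

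Abcb10 (ENSMUSG00000031974, chr8:123952459-123983122, minus strand) is the transporter among the 9 genes. It was at 11.0 and 11.7 CPM in Mock and at 15.3 and 16.3 CPM in FeSO4. The libraries of each group lay close together and the groups were well apart. The log2 fold change was 0.48 ± 0.13 (SE, adjusted p = 0.0173), or 1.39-fold with an interval from 1.15 to 1.69, and the same-numbered libraries gave log2 ratios of 0.47 and 0.48. The call was lost without Mock replicate 1 (0.43, adjusted p = 0.0834), without FeSO4 replicate 2 (0.43, adjusted p = 0.107) and when all genes with at least 1 count were tested in place of the filter on low counts (0.48, adjusted p = 0.0715).

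Hmox1 (ENSMUSG00000005413, chr8:75093618-75100593, plus strand), the inducible heme oxygenase, was at 9.27 and 9.30 CPM in Mock and at 16.4 and 13.4 CPM in FeSO4. The Mock libraries were nearly equal, and the FeSO4 libraries were both higher but differed from each other. The group means were 9.29 ± 0.0248 and 14.9 ± 2.09 CPM (SD, n = 2 each), and the log2 fold change was 0.68 ± 0.15 (SE, adjusted p = 0.00382). Without Mock replicate 1 the change was 0.67 (adjusted p = 0.0158). FeSO4 replicate 1 was the higher of its group. Without it the log2 fold change was 0.54 (adjusted p = 0.0524), without FeSO4 replicate 2 it was 0.82 (adjusted p = 0.00104), and without the filter on low counts it was 0.68 (adjusted p = 0.0554).

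Hmox2 (ENSMUSG00000004070, chr16:4726361-4766742, plus strand), the constitutive heme oxygenase, was at 59.2 and 59.8 CPM in Mock and at 55.3 and 55.7 CPM in FeSO4. Both FeSO4 libraries were slightly lower. The log2 fold change was -0.10 ± 0.08 (SE, adjusted p = 0.398), with an interval of the fold change from 0.833 to 1.04. Per length, Hmox2 RNA exceeded Hmox1 RNA 6.23-fold and 6.26-fold in Mock and 3.29-fold and 4.04-fold in FeSO4, so Hmox2 remained the more abundant transcript in each of the 4 libraries. In the mm9 annotation 892 exonic bases of Hmox2 overlap those of 5730403B10Rik on the opposite strand, which had a log2 change of 0.12 ± 0.09 (SE, adjusted p = 0.362).

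**Figure D3:**
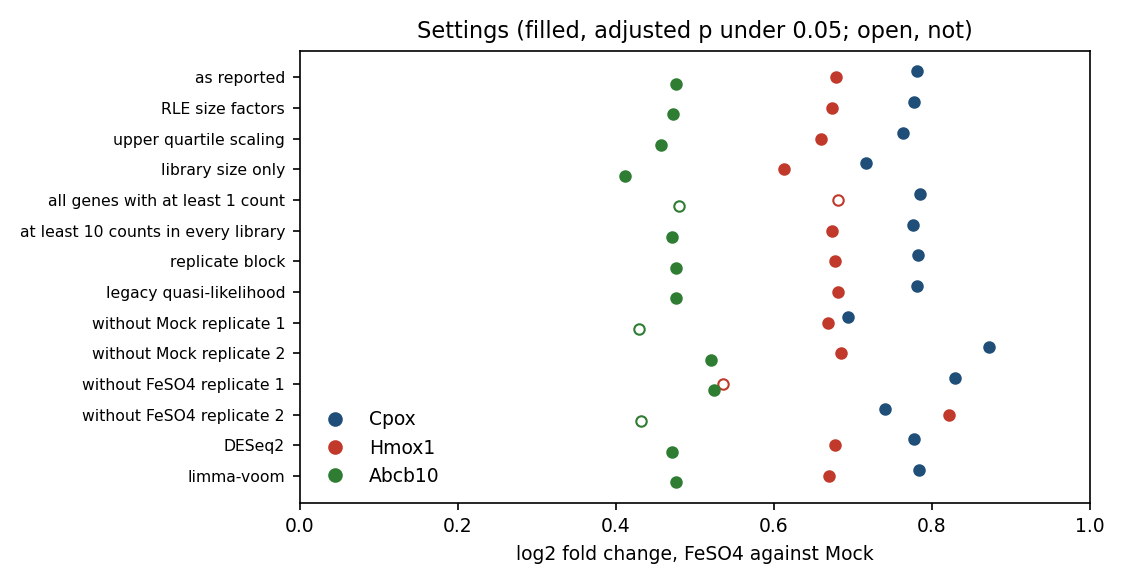
Log2 fold change of FeSO4 against Mock (horizontal axis) for Cpox (blue), Hmox1 (red) and Abcb10 (green) as reported and under 13 other settings (vertical axis). Filled points have an adjusted p under 0.05, which Cpox kept throughout and which Hmox1 and Abcb10 lost under 2 and 3 settings.

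Levels of different genes were compared per kb of exon, with exon lengths from the mm9 annotation. The full exon length was used also for Hmox2, Ppox and Alas1, where 892, 791 and 114 bases overlap a gene on the opposite strand. The strand setting of the counting is not given, so places in the order that involve these genes are uncertain. In Mock, Hmox2 was the highest of the 9 genes at 26.8 ± 0.178 CPM per kb, followed by Cpox at 21.3 ± 1.74, Urod at 16.5 ± 0.671, Fech at 15.3 ± 0.356 and Alad at 12.2 ± 1.66 CPM per kb (SD, n = 2 each). Ppox at 8.83 ± 0.622 and Alas1 at 8.41 ± 0.733 CPM per kb (SD, n = 2 each) could not be ordered, since their libraries overlapped. Hmox1 at 4.30 ± 0.0115 and Abcb10 at 2.64 ± 0.103 CPM per kb (SD, n = 2 each) were the lowest. In FeSO4 the order began with Cpox at 36.5 ± 1.56 CPM per kb, above Hmox2 at 25.0 ± 0.135 (SD, n = 2 each). Fech and Alad overlapped there, as did Ppox and Alas1, and Hmox1 at 6.90 ± 0.965 and Abcb10 at 3.67 ± 0.163 CPM per kb were the lowest again.

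**Figure D4:**
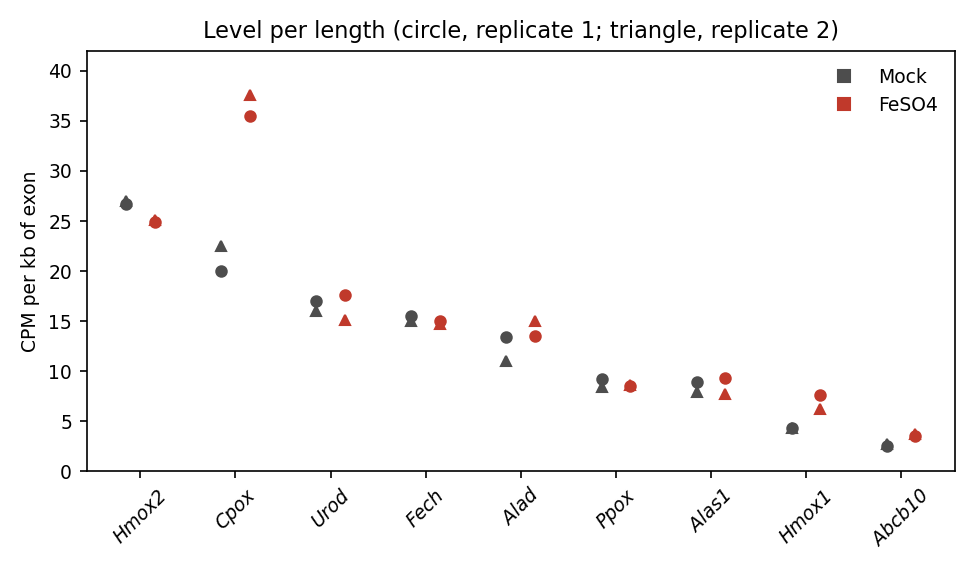
Level per kb of exon (vertical axis, CPM per kb, starting at 0) of the 9 genes, ordered by the Mock mean. Grey is Mock, red is FeSO4, circles are replicate 1 and triangles replicate 2. With full exon lengths, Cpox moves from second to first place in FeSO4, while Alas1 stays among the low genes.

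Genes that carry heme and its precursors were examined next as a list of 12, of which 9 passed the filter on low counts. Pgrmc2 and Tspo rose, Abcg2 fell and 6 were not called, against 10.9% higher and 9.17% lower over all genes tested. The median log2 fold change was 0.17. With replicate number added to the model as a block, 4 of these genes were higher and 2 lower. That fit called 1847 of 13732 genes higher and 1580 lower. Abcg2, which encodes an exporter of porphyrins and heme at the cell surface, was at 23.6 and 29.7 CPM in Mock and at 14.2 and 17.3 CPM in FeSO4 (log2 fold change -0.76 ± 0.13, SE, adjusted p = 0.000772). Both FeSO4 libraries were below both Mock libraries. Pgrmc2, which encodes a heme chaperone, went from a mean of 58.8 to 74.9 CPM (log2 fold change 0.35 ± 0.08, SE, adjusted p = 0.00373). Tspo, the mitochondrial translocator protein, went from 135 to 165 CPM (log2 fold change 0.29 ± 0.07, SE, adjusted p = 0.0061). Without the filter on low counts, the calls of Abcg2 and Tspo were lost (adjusted p = 0.0612 and 0.0598).

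Of the 3 genes listed for the steps after heme oxygenase, 0 passed the edgeR quasi-likelihood test. Over all genes tested, 20.0% were called in either direction. Blvrb and Por had an unadjusted p under 0.05. With replicate number as a block in the model, 1 of the 3 was called higher, against 1847 of 13732 genes. The biliverdin reductase genes were Blvra, with Mock libraries at 33.0 and 31.5 CPM and FeSO4 libraries at 38.5 and 31.1 CPM, and Blvrb, with Mock libraries at 5.45 and 4.59 CPM and FeSO4 libraries at 6.92 and 7.38 CPM. The libraries of Blvra overlapped and those of Blvrb did not. Their log2 fold changes were 0.10 ± 0.11 and 0.51 ± 0.19 (SE, adjusted p = 0.534 and 0.0732).

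Among the regulators and sensors of heme, 12 of 13 listed genes were tested, of which 3 rose and 2 fell, beside shares of 10.9% and 9.17% over the whole table (median log2 fold change 0.03). Bach1, the repressor of Hmox1, was at 26.6 and 32.5 CPM in Mock and at 31.5 and 26.0 CPM in FeSO4. The groups overlapped, and the log2 fold change was -0.04 ± 0.12 (SE, adjusted p = 0.851). Nfe2l2, which encodes NRF2, rose (log2 fold change 0.39 ± 0.08, SE, adjusted p = 0.00199), from 62.0 and 63.8 CPM to 87.0 and 78.3 CPM. Bach2, a relative of Bach1 that acts in lymphocytes, fell (log2 fold change -0.77 ± 0.11, SE, adjusted p = 0.000158), from 55.9 and 65.9 CPM to 30.8 and 40.7 CPM. Its call was lost when all genes with at least 1 count were tested (adjusted p = 0.0533).

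The small MAF genes, whose products pair with BACH1 and NRF2, were called in opposite directions. Mafk had a log2 change of -0.40 ± 0.10 and Mafg of 0.24 ± 0.08 (SE, adjusted p = 0.0109 and 0.0413). With single libraries left out, Mafk ranged from -0.55 to -0.25 and Mafg from 0.16 to 0.32. Keap1, the NRF2 inhibitor, named after its values were seen, was called at 0.22 ± 0.07 (SE, adjusted p = 0.0426). The calls of Keap1, Mafg and Mafk were lost under 7, 6 and 3 of 13 other settings. Eif2ak1, which encodes the heme-regulated inhibitor of translation, was at 69.2 and 66.5 CPM in Mock and at 66.8 and 61.2 CPM in FeSO4 (log2 fold change -0.08 ± 0.08, SE, adjusted p = 0.492).

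Hmox1 was set beside 10 other genes under BACH1 or NRF2. Of the 8 that were tested, 6 rose, none fell and the median log2 fold change was 0.50, against 10.9% of all genes that rose. These genes were listed with earlier results of these libraries known, so that their count is no independent evidence. Srxn1, which encodes sulfiredoxin, was at 1.82 and 2.06 CPM in Mock and at 6.77 and 6.05 CPM in FeSO4 (log2 fold change 1.72 ± 0.24, SE, adjusted p = 0.000109). Gclm, a subunit of the first enzyme of glutathione synthesis, and Nqo1, a quinone reductase, had log2 fold changes of 0.60 ± 0.10 and 0.74 ± 0.12 (SE; adjusted p = 0.000332 and 0.000465). Testing all genes with at least 1 count ended both calls (adjusted p = 0.0635 and 0.0836). Gclc, which encodes the other subunit of the glutathione enzyme, was not called (log2 fold change -0.06 ± 0.08, SE, adjusted p = 0.647). Its groups overlapped. Leaving out FeSO4 replicate 2 gave a change of 0.97 for Nqo1. Without FeSO4 replicate 1 the change of Nqo1 was 0.47 (adjusted p = 0.00165), and 4 of the listed genes were called higher in place of 6, in a fit where 893 of 14645 genes were higher in place of 1491 of 13732. Fth1, the ferritin heavy chain, changed by 0.39 ± 0.06 (SE, adjusted p = 0.000396), and its level is uncertain because it has processed pseudogenes. Gclm was at 139 and 119 CPM in Mock and at 219 and 172 CPM in FeSO4, and Nqo1 at 72.1 and 59.8 CPM in Mock and at 129 and 90.9 CPM in FeSO4. In both groups replicate 1 was the higher library for these genes, whereas the Mock libraries of Hmox1 were nearly equal.

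The last list held enzymes that modify or attach heme, heme proteins and subunits of their complexes, among them Uqcrfs1, whose product carries an iron-sulfur cluster and no heme (log2 fold change 0.11 ± 0.065, SE; adjusted p = 0.251). Of its 14 genes, all of which were tested, 7 rose and none fell, where 10.9% of all genes tested rose and 9.17% fell, and the median log2 fold change was 0.18. This list, too, was drawn up with earlier results known. Cyp51, a cytochrome P450 of sterol synthesis, was at 124 and 135 CPM in Mock and at 302 and 290 CPM in FeSO4, which is a log2 change of 1.19 ± 0.07 (SE; adjusted p = 2.47e-09). The cytochrome b5 genes Cyb5b and Cyb5a had log2 fold changes of 0.45 ± 0.06 and 0.39 ± 0.07, and Nenf, a heme-binding relative, of 0.61 ± 0.11 (SE; adjusted p = 0.000121, 0.00138 and 0.000926). The call of Cyb5a was lost when all genes with at least 1 count were tested (adjusted p = 0.0519). That filter left 3 genes of this list called higher, with 524 of 22164 genes higher over the whole table.

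**Figure D5:**
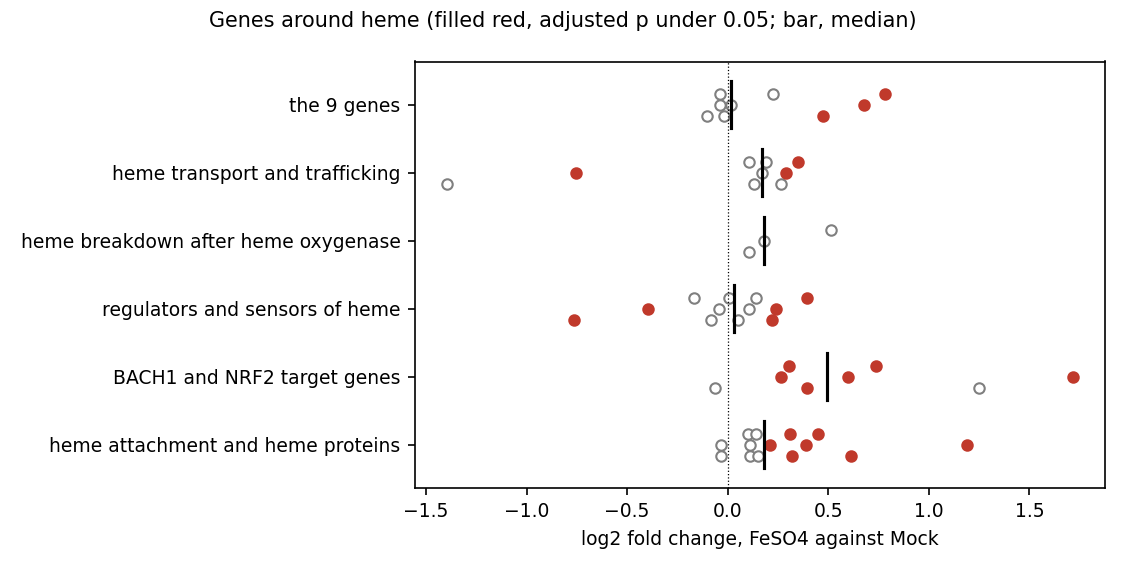
Log2 fold change of FeSO4 against Mock (horizontal axis) for every tested gene of the 9 and of the 5 lists around heme (vertical axis). Filled red marks an adjusted p under 0.05 and black bars are medians, which run from 0.018 for the 9 genes to 0.50 for the BACH1 and NRF2 targets.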

How the data were processed

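RNA was sequenced from 2 Mock and 2 FeSO4 cultures. The deposited table gives unnormalized read counts for Ensembl gene IDs. The methods name STAR and mm9, while the submitters' processing notes name mm10, Trim Galore 0.6.7, STAR 2.7.9a and featureCounts. Of 47729 gene IDs, 14930 are absent from the mm9 annotation used here (GENCODE M1), so positions are given on GRCm38 (mm10) and only exon lengths and overlaps come from mm9. The annotation and strand setting are not given in the sources used here. The 5 closing rows of reads not assigned to a gene (15.9 to 17.3% of a library) were left out. They carry the row names of htseq-count, so which program counted the reads is uncertain. Reads set aside there as ambiguous were 3.78 to 3.91% of a library. No column of another sample was present.

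The tests used edgeR 4.0.16 under R 4.3.3. The filter filterByExpr passed 13732 genes, libraries were scaled by TMM, and the quasi-likelihood test (in its current, not its legacy form) compared FeSO4 with Mock. P-values were adjusted by the Benjamini-Hochberg method across the 13732 genes, and 0.05 was the threshold. The standard error is the log2 fold change over the square root of F, and intervals are 95% intervals. CPM use the TMM-scaled sizes. The fit was tested on simulated data, and the outcome of that check is not given here. A count of 3, the limit that a count of 0 allows, is 0.0734 to 0.0853 CPM before TMM scaling, for counting error only. Replicates differed by more than sampling noise (chi-square per degree of freedom 8.85 in Mock and 7.25 in FeSO4). Alternatives were DESeq2 1.42.0, limma-voom 3.58.1, other scalings and filters, the replicate block, each library left out, and, added after the data were seen, the legacy test of edgeR.

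The 9 genes, the lists and the markers were chosen with earlier results of these data known. The text names the 9 genes, up to 4 called genes of smallest p per list, and Bach1, Nfe2l2, Eif2ak1, Blvra and Blvrb. Keap1, Por, Uqcrfs1, Gclc, marker genes and genes that overlap the 9 are named outside this rule. The list of synthesis enzymes does not hold every step of the pathway, and 1 marker gene is not reported here.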

Additional observations from a re-analysis of the deposited data

How the results depend on the processing

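The 9 genes were tested under 13 alternatives. Of 117 values, 105 kept their direction and their side of the threshold, 5 lost the call (Hmox1 and Abcb10) and 7 changed sign without a call on either side. The sign changes were those of Alas1 with upper quartile scaling (-0.0015) and library size only (-0.047), and, when single libraries were left out, of Alas1 (-0.11 to 0.15), Urod (-0.13 to 0.094) and Ppox (-0.10 to 0.028). Of the genes named from the lists, Blvra (-0.051 to 0.26) and Bach1 (-0.19 to 0.12) changed sign in the same way, also without a call. The count of the 9 genes that rose was 3 except for 1 when every gene with a count of 1 or more was tested, and 2 or 3 with a library left out, and none fell under any of the 13.

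The whole table changed too under that filter, with 524 genes higher and 304 lower among 22164, against 1491 and 1259. Among its lists it left 1 higher and 0 lower transport genes, 1 higher and 0 lower regulators, 2 BACH1 and NRF2 targets and 3 genes of the heme protein list. Library size only gave 2 lower transport genes and 1 higher regulator, a minimum of 10 counts gave 2 lower transport genes, and upper quartile scaling gave 1 higher regulator. Leaving out single libraries gave 1 to 2 lower transport genes (2 without Mock replicate 2), 1 to 2 higher and 1 to 2 lower regulators, 4 to 6 higher BACH1 and NRF2 targets and 4 to 7 higher genes of the heme protein list (4 of each without FeSO4 replicate 1). Over the whole table the same fits called 893 (without FeSO4 replicate 1) to 1199 genes higher. The cause was not tested. The share of calls that were higher was 54.2% with TMM, 48.0% with upper quartile scaling and 35.1% with library size only, which moved the median of all genes to -0.066.

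The methods describe the samples as pairs from independent experiments, and the fit reported above holds no term for the pairs. The labels number the replicates alike, but do not say that a number marks a shared culture. The deviations of same-numbered libraries correlated by 0.029 across genes, which does not decide whether single genes deviated together. With the replicate block, the 9 genes kept their calls (Cpox 0.78, Hmox1 0.68, Abcb10 0.48), and 4 transport genes were higher, 2 lower, and 1 gene after heme oxygenase higher. Over the whole table, 1847 genes were then higher and 1580 lower, against 1491 and 1259 without the block.

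With 2 libraries per group, the intervals of the 6 genes that were not called still allow changes of up to 1.38-fold (Alad, upper bound).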

Other observations

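Reads of Hba-a1, which encodes the alpha chain of hemoglobin, the best known heme protein, were present in all 4 libraries and were more frequent with FeSO4. The gene, described after its values were seen, was at 24.5 and 19.6 CPM in Mock and at 37.5 and 32.5 CPM in FeSO4, with a log2 change of 0.66 ± 0.12 (SE; adjusted p = 0.000731 by the edgeR quasi-likelihood test, and 0.0533 when all genes with at least 1 count were tested). Both FeSO4 libraries were above both Mock libraries. The near-identical copy Hba-a2 had 41 and 48 counts in Mock and 74 and 69 in FeSO4 (log2 fold change 0.89 ± 0.36, SE, adjusted p = 0.0901), and both levels are uncertain because the copies are near-identical and 4.27 to 4.62% of the reads of a library were set aside as not uniquely aligned. Of other erythroid markers, Alas2 had 4 to 16 counts in a library, and Slc4a1 and Rhag had 0 in all 4. Whether red cell RNA has a part in the Hba-a1 values was not tested.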
